A study of Mus musculus and Mus spretus with 72 samples.

Results

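The genes described here encode sperm proteins that meet the egg or its coat: Zan (zonadhesin), Zp3r (sp56), Acr (acrosin), Spam1 (the hyaluronidase PH-20), Adam2 (fertilin beta), Adam3 (cyritestin) and Crisp2 (cysteine-rich secretory protein 2). They were picked by gene symbol, with earlier results of these data known. All 7 were found, each as 1 probe with 2 neighbouring spots, among 14386 genes named by a single symbol on the array. On each of 72 arrays with 2 channels, RNA from 1 male mouse of about 12 weeks was set against a pool of 9 C57BL6 mice of the same tissue. The groups were M. spretus (spretus, 3 mice), M. musculus of a sub-species that the labels leave unnamed (ssp, 6), M. m. castaneus (cas, 3), M. m. musculus (mus, 6) and M. m. domesticus (dom, 6), each with testis, brain and liver/kidney arrays. The last 4 are called the 4 musculus groups, and C57BL6, the laboratory strain in the pool, is in the other channel of every array. The labels name no strain, population or litter for the mice, so the p-values measure the spread between these mice only.

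Fertilisation in the mouse starts with sperm passing the cumulus cells and attaching to the zona pellucida, the glycoprotein coat of the egg. The acrosome, a vesicle capping the sperm head, holds enzymes and zona-binding proteins and releases them when its membranes fuse. These proteins are made in the testis, mostly by meiotic and post-meiotic germ cells, and several of them are known from comparisons between mammals to evolve rapidly in sequence. ADAM proteins of the sperm surface are processed in testis and epididymis, and mouse sperm that lack Adam2 or Adam3 fail to migrate through the oviduct and to bind the zona.

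The deposited values are log ratios, taken here as log2. Their direction is not stated and was taken as mouse over pool, which the channel labels make likely. Were it inverted, every sign below would turn. A ratio of 0 means equality with the pool and says nothing of how strongly a gene is expressed, so levels cannot be compared between genes or between tissues. For the same reason the arrays cannot show how strong testis markers are in the tissue labelled testis. Testis arrays carried 42946 to 44716 values each. Arrays were centred on their median, and differences between groups were tested with limma over 20754 probes, with Benjamini-Hochberg adjustment and a threshold of 0.05. Arrays of a tissue fell into sets that lacked values at the same spots, which the labels do not describe as batches. In testis all spretus and cas arrays and mus 7 and 8 shared 1 set, so spretus could be compared with 5 musculus arrays inside it. The interquartile range of all log2 ratios on an array was 0.24 to 0.39 in spretus testis, against 0.12 to 0.41 in ssp, 0.11 to 0.19 in cas, 0.06 to 0.23 in mus and 0.16 to 0.28 in dom.

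The 250 bases before the transcription start, from RefSeq on GRCm38.p6, are given for Zan and Crisp2. These members passed the test of the spretus difference between tissues given below, Crisp2 not in all settings. RefSeq promoters were at hand for 4 of the 7 genes, Zan, Zp3r, Spam1 and Crisp2. Both strands were searched for TGACG, a half-site of the cAMP response element, which factors such as CREM bind in spermatids, and for TATAAA, the core of a TATA box. Capitals mark the matches.
Zan, chr5:137477065-137477314, minus strand: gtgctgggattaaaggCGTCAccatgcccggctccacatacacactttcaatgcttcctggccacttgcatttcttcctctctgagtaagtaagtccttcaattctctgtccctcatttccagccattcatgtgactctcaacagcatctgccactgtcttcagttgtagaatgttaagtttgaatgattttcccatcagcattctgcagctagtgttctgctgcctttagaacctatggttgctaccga
Crisp2, chr17:40794147-40794396, minus strand: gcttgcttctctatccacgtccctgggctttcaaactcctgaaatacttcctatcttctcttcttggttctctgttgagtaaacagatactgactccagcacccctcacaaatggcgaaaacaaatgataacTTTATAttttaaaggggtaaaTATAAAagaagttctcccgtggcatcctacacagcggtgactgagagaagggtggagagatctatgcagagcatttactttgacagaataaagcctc
Zan held 1 TGACG, read on the other strand as CGTCA and beginning at position -234 from the start site, and no TATAAA. Crisp2 held 2 TATAAA matches, 1 on each strand, and no TGACG, while Zp3r and Spam1 held neither motif. Of 32851 RefSeq promoters, 17.8% held TGACG and 12.4% held TATAAA in the same window. A match is a description of letters and not evidence that a factor binds there.

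Zan was the member that set spretus testis apart. Zonadhesin is a large acrosomal protein that binds the zona pellucida in a species-specific way. Its log2 ratio to the pool was 0.78, 1.21 and 1.19 in the 3 spretus testes, which is 1.72, 2.31 and 2.28 times the pool. In ssp testes the lowest, median and highest values were -0.18, 0.26 and 0.78. The 3 cas testes stood at 0.22, 0.22 and 0.34. The mus testes had -0.07, 0.13 and 0.37 as lowest, median and highest, and the dom testes had -0.13, 0.05 and 0.25. Every spretus array lay above the other 21 arrays, although spretus 1 and ssp 1 were close, at 0.783 and 0.777. Of all probes with a value on each spretus array, 3.63% showed such a separation in either direction, and 2.55% were separated upwards as Zan was.

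Spretus exceeded the mean of the 4 musculus groups by 0.88 ± 0.13 (log2 difference ± SE, 95% interval 0.62 to 1.14), a 1.84-fold difference. The limma adjusted p was 4.49e-05. Zan was thus 1 of 7 members past the threshold in this comparison, set against 9.42% of all probes (5.63% higher and 3.79% lower in spretus). A share this close to the background says nothing about the genes as a group. Against each group alone, in 4 comparisons chosen after seeing the data, spretus Zan was higher by 0.79 ± 0.14 than ssp, 0.81 ± 0.17 than cas, 0.93 ± 0.14 than mus and 1.00 ± 0.14 than dom. The limma adjusted p ran from 6.06e-05 against dom to 0.0059 against cas. The shares of all probes past the threshold were 5.53%, 2.96%, 7.27% and 9.25% in those 4 comparisons. In bulk tissue, more cells that express Zan and more Zan RNA per cell cannot be told apart. Probe sequences were not used, so the part of sequence differences between spretus RNA and the probes was not tested. This holds for every spretus difference given here, higher or lower.

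The ssp, cas, mus and dom means of Zan were 0.27, 0.26, 0.14 and 0.06, and no neighbours in that order differed past the threshold. Relative to the C57BL6 pool, Zan was higher by 1.06 ± 0.12 in spretus (limma adjusted p = 8.98e-07), the only 1 of 7 members past the threshold beside 18.7% of all probes. The mean of the 4 musculus groups was also above the pool, by 0.18 ± 0.05 (limma adjusted p = 0.011), again as the only 1 of 7 members beside 13.1% of all probes. These tests against the pool leave out its own spread. The musculus call was lost when array sets or title numbers entered the model, when the first spots were used and within either array set (adjusted p = 0.054 to 0.17).

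Zan was also among the highest ratios on each spretus array, at percentiles 98.88, 98.95 and 99.53 of all probes in spretus 1, 2 and 3. Among the other arrays, ssp 1 at 98.90 and ssp 6 at 99.00 reached that height. The difference held within the set of arrays that lacked the same spots, where 3 spretus arrays exceeded 2 mus and 3 cas arrays by 0.84 ± 0.11 (limma adjusted p = 0.0088). Quantile normalisation, which gives all arrays 1 distribution of values, lowered it to 0.45 ± 0.13 (limma adjusted p = 0.080) and ended the call. The 2 spots of Zan agreed closely over 23 arrays with both (r = 0.95, against a median of 0.53 over all probes). A wide spread between arrays, as Zan had, raises such an r. The median gap between the Zan spots was 0.06, beside 0.04 (Zp3r) to 0.11 (Adam3) in the other members. The widest gap for Zan was on ssp 1, where the first spot read 1.02 and the second 0.54. That first spot lay above the 0.82 of the first spot on spretus 1.

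**Figure D1:**
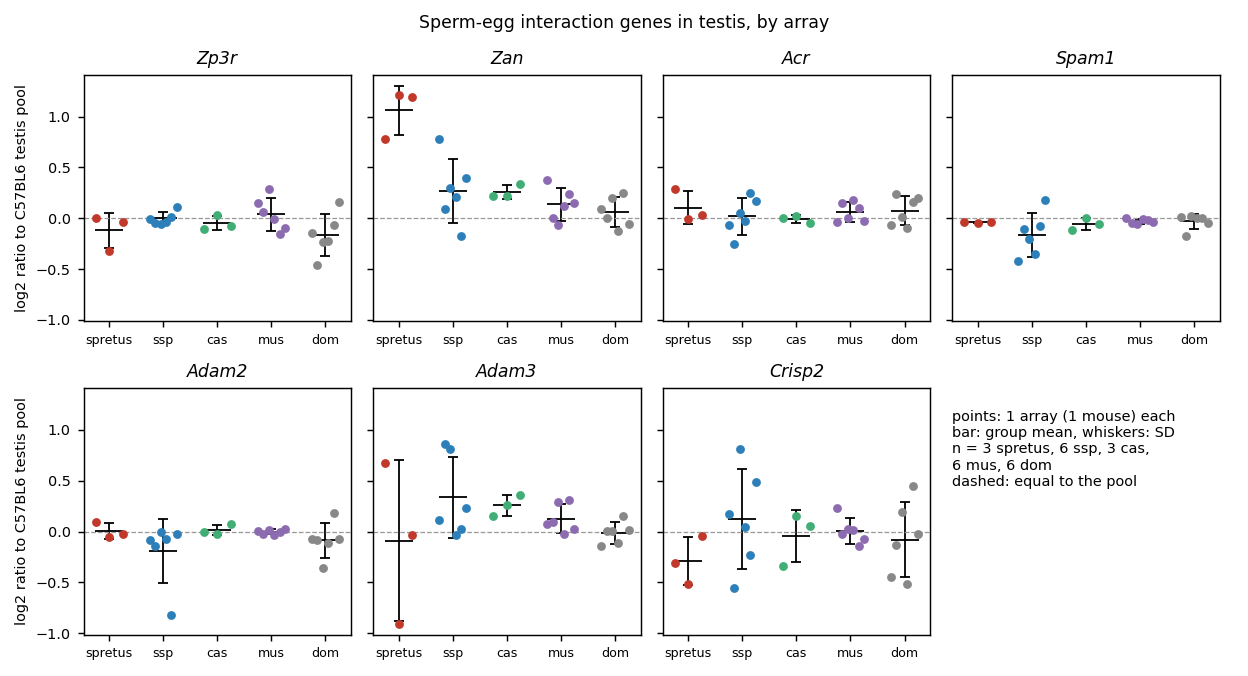
Log2 ratio to the C57BL6 testis pool (vertical axis) of the 7 genes on the 24 testis arrays, by group (horizontal axis). Points are arrays, bars are group means and whiskers are SD. Zan in spretus lies between 0.78 and 1.21, while in each of the other 6 genes at least 1 spretus point lies within the range of the musculus arrays.

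Zp3r, an acrosomal protein first described as a binder of the zona glycoprotein ZP3, passed no test between groups in testis. The spretus testes had -0.0007, -0.32 and -0.04. Its lowest, median and highest ratios were -0.05, -0.02 and 0.11 in ssp, -0.10, -0.08 and 0.03 in cas, -0.15, 0.02 and 0.28 in mus and -0.46, -0.19 and 0.16 in dom. All groups overlapped. Spretus stood at -0.08 ± 0.09 relative to the musculus mean (limma adjusted p = 0.70). Of the 4 comparisons among groups, the widest difference of Zp3r was mus over dom, at 0.20 ± 0.09, with an unadjusted p of 0.030 and a limma adjusted p of 0.75. In that comparison 0 of 7 members and 0% of all probes passed the threshold, while 1367 probes had an unadjusted p under 0.05.

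The 2 acrosomal and surface enzymes were close to the pool in most testes. Acr encodes acrosin, the main serine protease of the acrosome. It measured 0.29, -0.01 and 0.03 in spretus, and from -0.26 to 0.25 over the 21 musculus testes with a median of 0.02. The spretus values were all inside or just above that range, and the difference was 0.07 ± 0.09 (limma adjusted p = 0.71, 95% interval -0.11 to 0.25). Group means of Acr ran from -0.007 in cas to 0.10 in spretus.

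Spam1 is a hyaluronidase of the sperm surface that digests the matrix around the cumulus cells. Its 3 spretus testes were the tightest group of any member, at -0.04, -0.05 and -0.04. The ssp testes spread widely, at -0.43, -0.16 and 0.18 as lowest, median and highest, with ssp 1 and ssp 4 lowest of all 24. In cas the range was -0.12 to 0.002, in mus -0.06 to -0.003 and in dom -0.18 to 0.02. Spretus and the musculus mean differed by 0.03 ± 0.08 (limma adjusted p = 0.87, 95% interval -0.13 to 0.19). The ssp mean stood at -0.13 ± 0.06 relative to the average of the other 3 musculus groups, with an unadjusted p of 0.0495 and a limma adjusted p of 0.9985. There too, 0 of 7 members and 0% of all probes passed, with 1009 probes at an unadjusted p under 0.05.

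The ADAM genes encode surface proteins with inactive metalloprotease domains. Adam2, the beta subunit of fertilin, was near the pool in spretus, at 0.09, -0.05 and -0.03. The lowest, median and highest ratios were -0.82, -0.08 and -0.01 in ssp, -0.03, -0.01 and 0.07 in cas, -0.03, 0.002 and 0.03 in mus and -0.36, -0.08 and 0.18 in dom. The 2 low values, ssp 5 and dom 5, came from single spots: the pair read -1.50 and -0.14 on ssp 5 and -0.89 and 0.17 on dom 5. Over the 24 testis arrays the duplicate spots of Adam2 hardly correlated (r = 0.03). The median gap between them was 0.07, and on these 2 arrays alone it was over 0.5. Spretus minus the musculus mean was 0.07 ± 0.11 (limma adjusted p = 0.77).

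Adam3, or cyritestin, had the widest spread within spretus of any member in testis. Spretus 1 stood at 0.68, spretus 2 at -0.91 and spretus 3 at -0.04. The duplicate spots agreed on all 3 arrays, at 0.73 and 0.62, -0.96 and -0.83, and -0.04 and -0.03. In ssp the values ran from -0.03 to 0.86 with a median of 0.17. There ssp 3 read 0.91 and 0.72 on its 2 spots, while the 0.86 of ssp 2 rested on 1 spot at 1.72 beside another at 0.04. The cas testes had 0.15, 0.26 and 0.36, and the medians of mus and dom were 0.09 and 0.004.

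The difference of Adam3 between spretus and the musculus mean was -0.27 ± 0.20 (limma adjusted p = 0.47). Without spretus 1 it became -0.65 ± 0.19 and passed the threshold (limma adjusted p = 0.031), while the remaining spretus arrays, at -0.91 and -0.04, still lay far apart. The residual SD of Adam3 around its group means was 0.34, higher than in 95.7% of probes.

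Crisp2 encodes a protein of the acrosome and the sperm tail. It read -0.31, -0.52 and -0.04 in spretus testes, all below the pool. The lowest, median and highest values were -0.56, 0.11 and 0.81 in ssp, -0.34, 0.06 and 0.15 in cas, -0.15, -0.004 and 0.24 in mus and -0.52, -0.08 and 0.45 in dom, so that the groups overlapped throughout. The difference of spretus from the musculus mean was -0.29 ± 0.20 (limma adjusted p = 0.41, 95% interval -0.70 to 0.12). The residual SD of Crisp2 was 0.34, higher than in 95.6% of probes, although its duplicate spots agreed (r = 0.83).

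**Figure D2:**
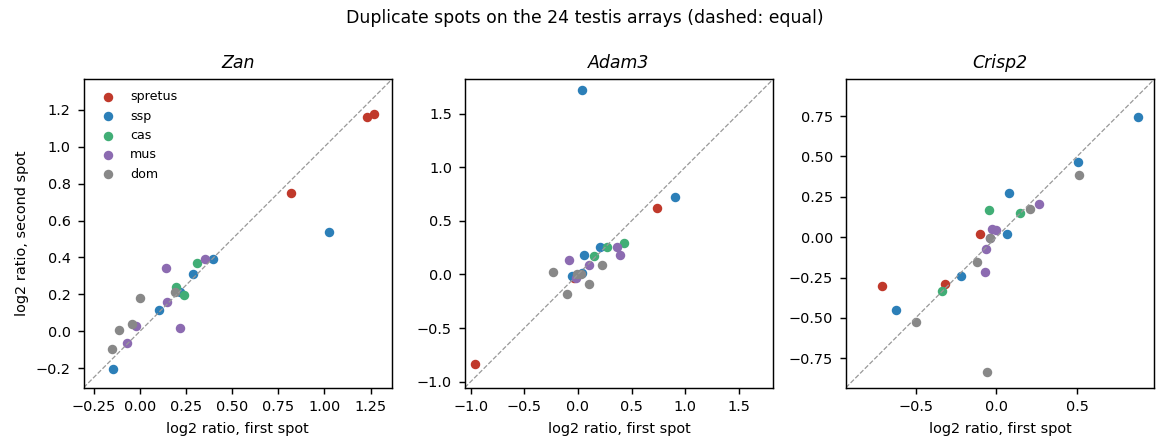
Log2 ratio on the second spot (vertical axis) against the first spot (horizontal axis) for Zan, Adam3 and Crisp2 in testis; points are arrays with a value at both spots, coloured by group, and the dashed line marks equality. Most points follow the line over the whole range, with ssp 2 in Adam3 and dom 1 in Crisp2 standing off it.

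Adam3 and Crisp2 thus had the widest spread of the 7 members around their group means. Among the testis arrays, 5 of 168 member values had duplicate spots more than 0.5 apart, and 4 had a value at only 1 spot. The 21 pairs of members correlated weakly over the 24 testis arrays, from -0.23 for Zan with Adam3 to 0.36 for Adam3 with Zp3r, with a median of 0.07. These points share arrays, the pool and the group structure, and the correlations are given as a description.

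Among the 4 musculus groups no member passed the test in testis. The Adam3 values of cas (lowest 0.1549) all lay above those of dom (highest 0.1548), by a margin far below the spread within either group. The share of all probes that separate cas from dom was not computed, so this separation is a description only. For cas set against the average of its mus and dom counterparts, 0 of 7 members passed the limma threshold, with 0 members at an unadjusted p under 0.05. Of all 20754 probes, 0.0193% passed the threshold and 1298 had an unadjusted p under 0.05. The largest of these cas differences was Adam3, at 0.20 ± 0.20, followed by Zan at 0.16 ± 0.13. The 95% intervals of Zan left room for a difference of up to 0.43 in cas, 0.32 in ssp (over the average of cas, mus and dom) and 0.32 in mus over dom.

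**Figure D3:**
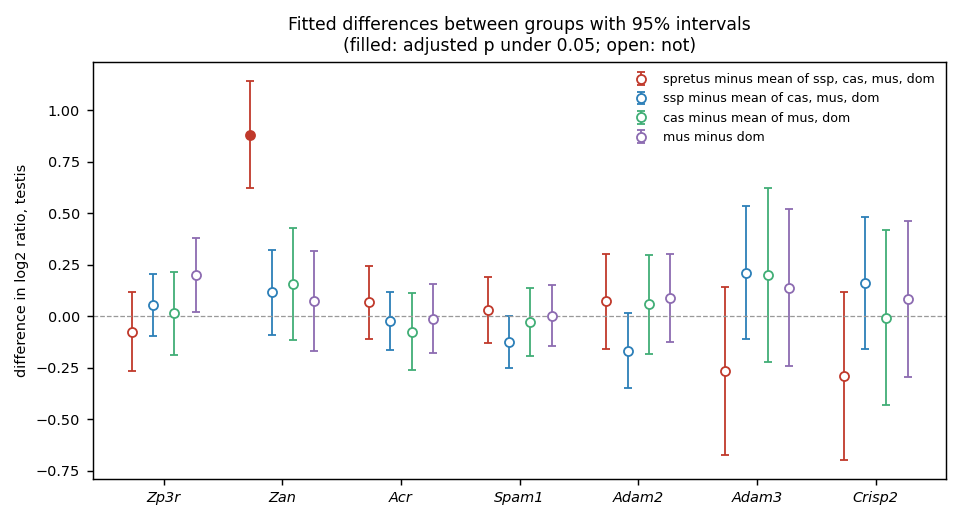
Fitted difference in log2 ratio in testis (vertical axis) for each gene (horizontal axis) in 4 comparisons; whiskers are 95% intervals and filled points have a limma adjusted p under 0.05. The spretus difference of Zan, 0.88, is the only filled point, and the intervals of Adam3 and Crisp2 are the widest.

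In brain and liver/kidney the spretus difference of Zan did not pass the test. The spretus brains had -0.37, -0.24 and -0.24, and the 21 musculus brains ran from -0.53 to 0.36 with a median of -0.07. In liver/kidney the spretus values were -0.67, 0.26 and -0.17, against -0.68 to 0.32 with a median of -0.17 in the musculus groups. Spretus overlapped the musculus groups in both tissues. The differences were -0.19 ± 0.11 in brain (limma adjusted p = 0.38) and -0.06 ± 0.14 in liver/kidney (limma adjusted p = 0.86).

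The spretus difference of Zan in testis exceeded the mean of those in the other 2 tissues by 1.01 ± 0.16 (limma with the mouse as a random block, adjusted p = 4.11e-06). It was higher by 1.07 ± 0.18 than in brain and by 0.94 ± 0.18 than in liver/kidney (limma adjusted p = 3.36e-05 and 0.000275). In this test of tissues 2 of 7 members passed, beside 4.81% of all probes. Beside brain alone and liver/kidney alone, 2.96% and 5.98% of all probes passed, and Zan was the only 1 of 7 members to do so.

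**Figure D4:**
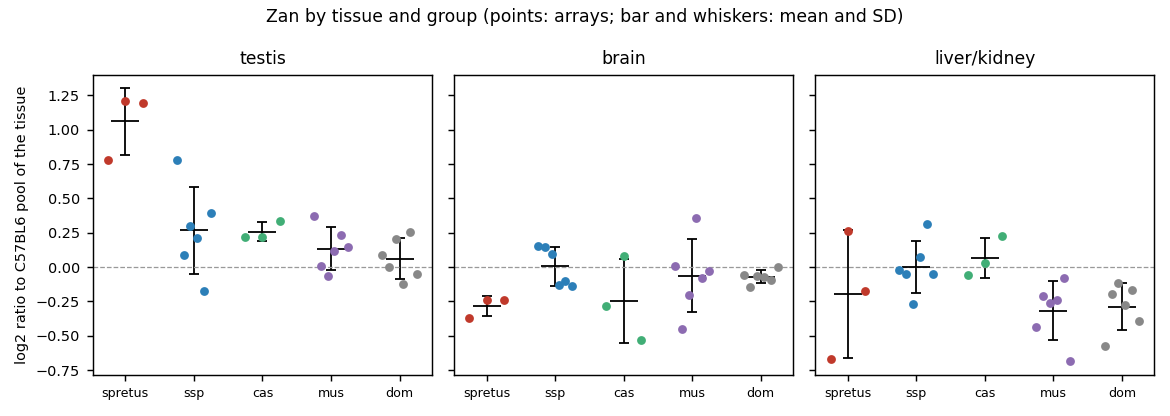
Zan log2 ratio to the C57BL6 pool of the same tissue (vertical axis) by group (horizontal axis) in testis, brain and liver/kidney; points are arrays, bars are means and whiskers are SD. Spretus points lie at 0.78 to 1.21 in testis and between -0.67 and 0.26 in the other tissues.

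Crisp2 was the other member whose spretus difference depended on the tissue, by -0.58 ± 0.18 (limma adjusted p = 0.0365). Beside brain alone and liver/kidney alone it did not pass (limma adjusted p = 0.096 and 0.089). Signal over background is unknown in these tissues. In liver/kidney the spretus values of Crisp2 were 0.18, 0.15 and 0.11, and the musculus values ran from -0.36 to 0.13 with a median of -0.12. Only 1 musculus array, at 0.13, reached into the spretus range. There spretus exceeded the musculus mean by 0.27 ± 0.07 (limma adjusted p = 0.0223), the only 1 of 7 members past the threshold beside 7.49% of all probes. In brain the spretus values were 0.12, 0.21 and 0.47, and the difference of 0.31 ± 0.12 did not pass (limma adjusted p = 0.16). Both Crisp2 calls were lost in several other settings: the tissue call without spretus testis 2 (-0.47, adjusted p = 0.25) and the liver/kidney call without spretus 2 (0.27, adjusted p = 0.078) or spretus 1 (0.26, adjusted p = 0.065).

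The remaining members gave no call for spretus outside the testis. In brain 0 of 7 passed by limma beside 3.95% of all probes, with Acr, Spam1 and Crisp2 at an unadjusted p under 0.05. Of all 20621 probes tested in brain, 3950 had an unadjusted p under 0.05 in this comparison. Spam1 came closest. It read -0.29, -0.27 and -0.28 in the 3 spretus brains, below all 21 musculus brains, which ran from -0.22 to 0.70, a separation that 2.24% of probes showed in either direction and 1.18% showed downwards. The difference was -0.35 ± 0.12 (limma adjusted p = 0.085). In liver/kidney the array of spretus 2 stood apart from the other spretus arrays for Adam3, at 0.64 against -0.05 and -0.11, and for Acr, at -0.58 against 0.26 and 0.04. That array lacked values at other spots than the rest of its group. The difference of Adam3 there was 0.27 ± 0.10 (limma adjusted p = 0.12).

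Against the pool, the mean of the musculus groups was lower in liver/kidney for Zan (-0.13 ± 0.05), Adam3 (-0.11 ± 0.04), Spam1 (-0.20 ± 0.07) and Crisp2 (-0.12 ± 0.03), with limma adjusted p from 0.00105 for Crisp2 to 0.0444 for Zan. These 4 of 7 members stood beside 31.4% of all probes past the threshold, with 14.0% of all probes lower. In brain 0 of 7 members passed this limma test and 8.95% of all probes did, with Zan and Adam3 at an unadjusted p under 0.05. There 5257 of 20621 probes had an unadjusted p under 0.05. In both tissues the tests against the pool leave out its own spread and were not recomputed in other settings. Signal over background is unknown in both.

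Other genes of sperm-egg interaction were followed as lists, described by their counts. For spretus minus the musculus mean in testis, the median difference over all probes was 0.01, and 9.42% of all probes were called (5.63% higher and 3.79% lower). The counts of the 4 lists that follow, 1 or 2 called probes in each, are few and are given as a description. Of 20 zona-binding and acrosomal genes (21 probes, median -0.07), 2 were lower and 0 higher. They were Prss21, the testis serine protease testisin, at -0.42 ± 0.10 (limma adjusted p = 0.0066), and Arsa, arylsulfatase A, at -0.28 ± 0.08 (limma adjusted p = 0.0259). Of 13 genes of adhesion and fusion (median 0.02), 1 was lower and 0 higher: Itga9, an integrin subunit, at -0.34 ± 0.05 (limma adjusted p = 0.000161). Its spretus values, -0.42 to -0.22, lay below all musculus values, -0.11 to 0.11, and 3.63% of all probes showed such a separation in either direction.

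Of 12 further ADAM genes (13 probes, median 0.05), 1 was higher and 0 lower. It was Adam39, at 0.19 ± 0.06 (limma adjusted p = 0.0383). Among 13 genes of ADAM folding and surface maturation (17 probes, median 0.01), 1 probe was higher and 1 lower, and in both cases another probe of the gene did not pass. Ace, whose testis form is needed to place Adam3 on the sperm surface, was higher on 1 probe (0.70 ± 0.19, limma adjusted p = 0.0225) and stood at -0.04 ± 0.07 on the other. Its spretus values on the first probe ran from -0.01 to 1.60. Hspa5, a chaperone of the endoplasmic reticulum, was lower on 1 probe (-0.59 ± 0.16, limma adjusted p = 0.0252) and at -0.01 ± 0.07 on the other. Within the 4 musculus groups, no gene of these 4 lists passed the limma threshold in any of the 3 testis comparisons. Each list had 0 to 2 probes at an unadjusted p under 0.05. Of all 20754 probes, 1367 had such a p in mus over dom, 1298 in the cas and 1009 in the ssp comparison.

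Markers of testis cell types, summed as array means, largely overlapped between spretus and the musculus arrays, apart from Leydig cell markers. The means of the 29 spermatid marker probes ran from -0.14 to 0.08 in spretus, against -0.17 to 0.21 in the 21 musculus arrays, and those of 24 spermatocyte probes from -0.14 to -0.001 against -0.13 to 0.075. Sertoli cell markers ran from -0.08 to 0.01 in spretus and from -0.09 to 0.04 in the musculus arrays. Spermatogonia markers ran from -0.04 to 0.04 in spretus and from -0.06 to 0.07 in the musculus arrays, epididymis markers from -0.0007 to 0.07 in spretus and from -0.14 to 0.50 in the musculus arrays, and blood markers from 0.04 to 0.15 in spretus and from -0.05 to 0.55 in the musculus arrays. Array means of the 8 Leydig cell probes lay lower in spretus, at -0.13 to -0.08, against -0.07 to 0.09 in the musculus arrays. Mean spretus ratios of the single probes were -0.26 for Fdx1, -0.23 for Hsd17b3, -0.17 for Cyp17a1, -0.10 for Scarb1 and -0.07 for Insl3. They were 0.03 for Cyp11a1, 0.03 for Star and 0.05 for Nr5a1. How often other sets of 8 probes separate in this way was not computed. Some single markers passed the test, as did 9.42% of all probes (5.63% higher and 3.79% lower): of 26 spermatid genes (27 probes), 1 was higher and 4 lower in spretus by limma, among them Tssk3, a kinase of elongating spermatids (0.67 ± 0.10, adjusted p = 4.32e-05), Meig1 (-1.36 ± 0.14, adjusted p = 7.65e-07) and Oaz3 (-0.85 ± 0.18, adjusted p = 0.00435), both needed for sperm formation. The musculus groups were themselves split for Meig1, whose means were -1.01 in spretus, 0.47 in ssp, 1.08 in cas, -0.11 in mus and -0.02 in dom. Cas exceeded the average of mus and dom by 1.14 ± 0.15 (limma adjusted p = 0.00218). Of 22 spermatocyte genes, 1 was lower by limma, the sperm lactate dehydrogenase Ldhc (-1.03 ± 0.18, adjusted p = 0.00038). Of 14 Sertoli genes, 2 probes were higher and 1 lower, with Clu called in both directions on different probes (0.65 and -0.63). Of 8 Leydig genes 1 was lower, Fdx1 (-0.27 ± 0.07, limma adjusted p = 0.0172), and 0 spermatogonia, epididymis or blood genes passed by limma, with 1, 2 and 0 probes at an unadjusted p under 0.05. Of all 20754 probes, 4803 had an unadjusted p under 0.05 in this comparison. The part of these cell type markers in the Zan difference was not tested.

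The genes whose pattern over the 24 testis arrays was most like each member were taken from 11567 genes with values on every array. For Zan they were Ass1 (r = 0.94), an enzyme of arginine synthesis, Npr2 (r = 0.93), a natriuretic peptide receptor, and Tmem189 (r = 0.92). All were high in spretus, with Ass1 at 1.20 to 1.49 in spretus and -0.60 to 0.58 in the musculus arrays. They were picked for likeness to Zan, itself high in spretus, so this height follows in part from the choice. For the other members r of the closest gene was 0.82 for Adam2 (Ezh2), 0.78 for Adam3 (Twsg1), 0.82 for Acr (Spz1), 0.69 for Spam1 (Phf14), 0.71 for Zp3r (Xpa) and 0.80 for Crisp2 (Npffr2). These arrays share the pool and the group structure, so the values are a description.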

How the data were processed

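The measurements are log ratios from 2-channel arrays of testis, brain and liver/kidney, 24 arrays a tissue. The authors deposited 1 log ratio per spot, assumed here to be log2; the sources used here do not name the scanner or any background correction or normalisation. Deposited array medians lay between -0.045 and 0.055. Groups came from the array titles; mus 8 in brain has a channel label of another sub-species and stayed in mus. Neighbouring spots with the same probe were averaged (22089 probes) and arrays centred on their median. Probes with at least 2 values in every group were fitted with limma 3.58.1 (R 4.3.3; lmFit, eBayes, 1 coefficient per group, two-sided, Benjamini-Hochberg over all probes of a tissue). The tissue comparison used all 72 arrays with the mouse as a random block. Alternatives were other normalisations, filters, single spots, array weights, array sets, the title number as a block and leaving out each array. Simulated testis arrays with 20754 probes recovered 77.0% of changes of 0.5 and 97.0% of changes of 1.0 in spretus. There 100 probes were changed at each size, and 7 unchanged probes were called in all. That is far fewer changed probes than the 1956 called in the data. The adjusted p depends on the share of changed probes, so the rates need not carry over. The simulated noise was independent between arrays and probes, so spread shared by arrays or array sets was left out. These rates are averages over probes with a median residual SD of 0.15. They do not give the recovery for Adam3 or Crisp2, with residual SDs of 0.34.

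Every member is named; from the lists, up to 3 called genes in each direction with the smallest p, or else the gene with the smallest p, could be named, and for likeness the 3 genes with the highest Pearson r. The members and lists were chosen with earlier results of these data known. Correlations between testis arrays over all probes reached down to -0.293. Array intensities, probe sequences and positions on the genome were not used, so signal over background is unknown here. The number of mice limits the precision, and duplicate spots can disagree, as for Adam2 on 2 testis arrays.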

Additional observations from a re-analysis of the deposited data

Results flagged for a closer look

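Of 63 groups of 6 arrays tested for a mouse far from the others of its group (7 genes, 3 tissues, dom, mus and ssp), 7 held one, and chance gives about 1 in 20. In testis, Adam2 in ssp 5 stood at -0.82 against -0.14 to -0.01 in the other ssp mice, with spots at -1.50 and -0.14. Spam1 in dom 3 was at -0.18 in testis, and the other dom mice lay between -0.04 and 0.02. In brain, Adam2 in dom 1 was at -0.68, apart from -0.02 to 0.23 in the rest of dom. Crisp2 in mus 5 read 0.22 in brain against -0.19 to -0.10 in its group. In liver/kidney, Spam1 in ssp 4 was at -1.26 on closely matching spots (-1.24 and -1.28), beside -0.36 to 0.09 in the other ssp mice. Adam3 in dom 1 stood at -0.18 there, beside -0.06 to 0.01, and Zp3r in dom 13 at -0.47, beside -0.05 to 0.12, with spots at -0.18 and -0.75.

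The spretus difference changed with the tissue for Zan (testis minus the mean of the other tissues, 1.01) and for Crisp2 (-0.58), by the test of that difference given above. The Crisp2 call was lost in several other settings and did not pass beside brain alone or liver/kidney alone.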

How the results depend on the processing

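Over all settings, 2206 recomputed member differences kept their side of the threshold, 22 lost and 12 gained a call, and none that was called changed sign. In testis the spretus count of members became 0 under quantile normalisation and 2 without spretus 1 (range 1 to 2 when leaving out arrays, with Adam3 gained); leaving out 1 array at a time kept the Zan difference between 0.81 and 1.02 and called. The musculus count against the pool became 0 with the first spots, with array sets as a term or random block, with the replicate block and within either array set, 2 with quantile normalisation and with only the musculus arrays, and 1 to 2 when arrays were left out (Spam1 gained without ssp 6). The brain spretus count became 3 with array weights, 1 with array sets as a term and 0 to 1 when arrays were left out (Spam1 gained without ssp 2). The liver/kidney spretus count became 0 with array weights, the second spots, array sets as a random block, the replicate block and within the shared array set, and ran from 0 to 2 when arrays were left out (Adam3 gained without spretus 1 or 3). The tissue count became 1 with quantile normalisation, array weights and the second spots and ran from 1 to 2 when arrays were left out: Crisp2 was lost without spretus testis 1 or 2, cas testis 2, spretus brain 3 or spretus liver/kidney 2, and Adam3 was gained without spretus testis 1 (-0.80, adjusted p = 0.00105). The causes of these changes were not tested. Title numbers do not pair mice across groups, and 4 of 24 testis arrays were closest to an array of the same number in another group; with the number as a replicate block, Zan in spretus testis was 0.83 ± 0.16 (limma adjusted p = 0.0072). The Zan difference between tissues was 0.57 under quantile normalisation (limma adjusted p = 0.0206). Counts of probes over the whole table moved more: for spretus in testis, 1956 became 486 under quantile normalisation, 792 with array sets as a term, 1076 with the replicate block, 512 within the shared set and 1042 without spretus 2. In brain, 814 became 61 to 3187, and in liver/kidney 1547 became 0 to 955 in the settings that moved it by over 1.5 times. The 990 of the tissue test became 408 under quantile normalisation and 645 without spretus testis 2. Against the pool, 2722 became 402 to 1742 for the musculus mean and 3890 became 750 to 2456 for spretus. For cas, 4 became 0 to 100, and the 0 of mus over dom became at most 8 and that of ssp at most 2. Array sets as a term could not be fitted in liver/kidney. Depth has no measure in these ratios.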
